A study of Drosophila melanogaster with 39 samples.

Results

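Small RNA libraries of whole fly ovaries, 6 of 39 in the series, were taken to compare ovaries without Piwi (3 libraries, null) with ovaries that keep 1 intact piwi allele (3 libraries, control). They were chosen by the genotype in their labels, and no measured value entered the choice. Piwi is the nuclear PIWI protein of Drosophila melanogaster and acts in germ cells and in the somatic cells of the ovary. It carries piRNAs, small guide RNAs that pair with transcripts of transposons and direct their silencing in chromatin. The other PIWI proteins of the fly, Aubergine and Ago3, act in the cytoplasm of germ cells, cut transposon RNAs and make further piRNAs in doing so. Piwi is known to hold longer piRNAs, on average, than Aubergine and Ago3. The siRNAs of 21 nt are made by Dicer-2 and loaded into Argonaute 2, so they form a small RNA class that does not pass through a PIWI protein.

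Both genotypes carry piwi>gal4, an allele made with CRISPR in flies with nos-Cas9. A cassette for EGFP, Gal4 and a dsRed eye marker lies between the piwi promoter and the piwi coding sequence, so that the promoter drives Gal4 in place of Piwi. Null ovaries carry this allele on both chromosomes (Piwi>gal4-Piwi>gal4), and control ovaries carry it over the CyO balancer (Piwi>gal4/Cyo). The control is therefore a heterozygote with Gal4 and a balancer, not a fly without the allele. Neither genotype carries a UAS transgene. The age of the flies and the number of ovaries behind a library were not stated. In the dm6 annotation piwi (FBgn0004872) occupies chr2L:10982205-10987420 on the minus strand, with its start codon at 10987330 to 10987332. The guide RNA used with Cas9 to place the cassette had an insert of 19 bases, shown here because the edit that it directed makes the null allele. No genome sequence was used, so its exact site is not given.
piwi guide RNA insert: gtcacttaaaacttcacaa

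Control and null libraries with the same replicate number carry the same sequencing index (RPI25, RPI26 or RPI27 for replicates 1, 2 and 3). All 3 null libraries carry barcode 1 and all 3 control libraries barcode 2, so genotype and barcode cannot be told apart. The deposited tables give reads by mapping class and by length from 20 to 30 nt, with no genes or sequences, so the lack of piwi RNA, the cell types of the ovary and the sources of the reads could not be checked. In RNA of whole ovaries, fewer cells of a type and less RNA per cell cannot be told apart either. The paper reports that flies homozygous for the allele are sterile, and that a wt Piwi transgene restored their fertility and the form of the ovary. Raw reads numbered 19564671, 36331026 and 2176442 in control replicates 1 to 3 and 7445288, 22334362 and 11096595 in null replicates 1 to 3. The length table held 6792079, 1220928 and 887982 reads of the controls and 5608706, 17673118 and 8411671 reads of the null libraries.

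The length table covered much less of the control libraries than of the null libraries, and this bounds every comparison of lengths. Reads of 20–30 nt in the table amounted to 38.5%, 3.72% and 45.8% of mapped reads in the controls, but to 90.6%, 92.8% and 91.6% in the null libraries. The ranges did not overlap. In the 9 total RNA libraries of null ovaries with a Piwi transgene the value was never below 85.2%, so the controls stood apart from all other total RNA libraries. The library at 85.2% was also the shallowest of the total RNA libraries, with 110971 raw reads. Which mapped reads the control columns leave out, of other lengths or of 20–30 nt, was not tested. Shares below are therefore given within the 20–30 nt reads of each library. Counting error was small beside the spread between libraries, with a 95% interval of at most 0.0869 percentage points to either side of a share (exact Clopper-Pearson, counting error only).

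Within the 20–30 nt reads, shares in the null libraries were shifted from the long to the short side of the profile. The shares of 25 nt and 26 nt, lengths at the centre of the piRNA range, were lower than in the controls. Those of 20 nt and 23 nt were higher. The shares of 20 to 24 nt were higher in the null library in each of the 3 index pairs, and those of 25 to 28 nt lower in each of the 3. In points of the 20–30 nt reads, the lengths of 20 to 24 nt together were 22.2, 21.8 and 22.7 points higher in the null library of replicates 1, 2 and 3. The lengths of 25 to 28 nt were lower (null minus control −22.9, −21.7 and −16.5 points). The gain was thus nearly the same in the 3 pairs, while the loss was smaller in replicate 3, where 29 nt and 30 nt together were also lower (−6.14 points). The most frequent length was 25, 25 and 26 nt in the controls and 22, 22 and 25 nt in the null libraries.

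**Figure D1:**
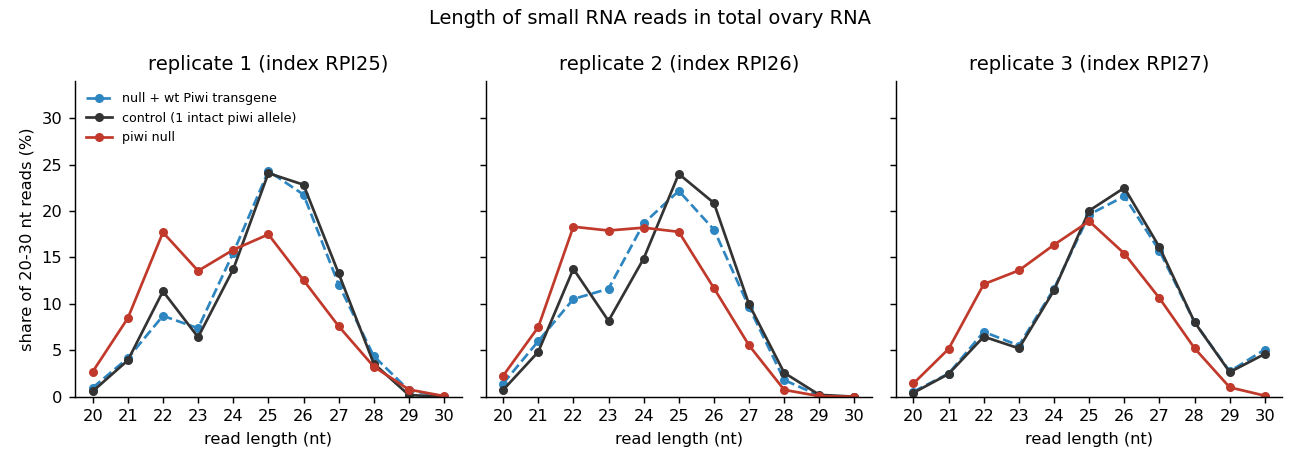
Share of the 20–30 nt reads (%) at each read length (nt) in total ovary RNA, 1 panel per index pair, with 1 point per library. Control is black, null red, and null with a wt Piwi transgene blue and dashed. In each panel the null line lies above the control from 20 to 24 nt and below it from 25 to 28 nt.

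Reads of 26 nt made up 22.8%, 20.9% and 22.5% of the 20–30 nt reads in the controls and 12.6%, 11.7% and 15.4% in the null libraries. Every null library was below every control. The change of the share was −0.81 on the log2 scale (SE 0.17, adjusted p = 0.00974, edgeR quasi-likelihood test over 11 lengths, 3 against 3 libraries). Reads of 25 nt made up 24.1%, 23.999% and 20.04% in the controls and 17.5%, 17.8% and 18.9% in the null libraries, again without overlap but only narrowly so in replicate 3. Their change was −0.39 (SE 0.12, adjusted p = 0.0379, edgeR). At 27 nt the controls had 13.3%, 9.95% and 16.1% and the null libraries 7.60%, 5.54% and 10.6%. Each null library was below its control of the same index, but null replicate 3 lay above control replicate 2. The change at 27 nt, −0.85 (SE 0.33, adjusted p = 0.0624, edgeR), did not pass the threshold of 0.05. It was −0.48 without null replicate 2, −0.53 without replicate 2 of both genotypes and −1.12 without null replicate 3.

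On the short side, reads of 23 nt made up 6.42%, 8.17% and 5.22% in the controls and 13.6%, 17.9% and 13.6% in the null libraries. Every null library exceeded every control, by 2.28 times on average, and the log2 change was 1.29 (SE 0.27, adjusted p = 0.00974, edgeR). Reads of 20 nt were rare, at 0.590%, 0.732% and 0.434% in the controls and 2.70%, 2.26% and 1.44% in the null libraries. Their groups did not overlap and the log2 change was 1.83 (SE 0.57, adjusted p = 0.0379, edgeR). The length tables of libraries with a wt Piwi transgene cover 92.3% to 93.5% of mapped reads. Against these libraries the change was 0.92 at 20 nt and 0.79 at 23 nt, and neither passed the test (adjusted p = 0.261 and 0.0854, edgeR). Reads of 24 nt, the shortest of the range taken for piRNAs, made up 13.7%, 14.9% and 11.5% in the controls and 15.8%, 18.2% and 16.4% in the null libraries. These groups did not overlap either, but the change of 0.34 did not pass the test (adjusted p = 0.103, edgeR) and was −0.056 under TMM scaling. At 22 nt the ranges were 6.48% to 13.8% in the controls and 12.1% to 18.3% in the null libraries, and they overlapped (log2 change 0.56, adjusted p = 0.103, edgeR, and 0.36 without null replicate 2). The authors describe removing microRNAs, many of which are 22 nt long, before mapping. The counts used here cannot check that removal.

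In all, 2 of 11 lengths were called higher in the null (18.2% of the lengths tested) and 2 lower (18.2%). The same 4 lengths were called when reads of 30 nt were left out. The split was 0 higher and 3 lower with TMM scaling over the lengths, which lowered every log2 change by 0.40, and 1 and 2 with DESeq2 size factors, which lowered them by 0.10. With the shared index as a block, 5 lengths were called higher (20 to 24 nt, 45.5%) and 4 lower (25, 26, 27 and 30 nt, 36.4%), and all 4 lengths called without the block were among them. The 30 nt call came from 1 pair, since the log2 ratios within the pairs were 2.18, −0.60 and −5.28. Without control replicate 1, edgeR called 0 lengths in either direction, and 0 had an unadjusted p under 0.05. Leaving out replicate 1 of both genotypes gave the same counts of 0. Without null replicate 3 the counts were 5 higher and 3 lower, and without replicate 3 of both genotypes 4 and 3.

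**Figure D2:**
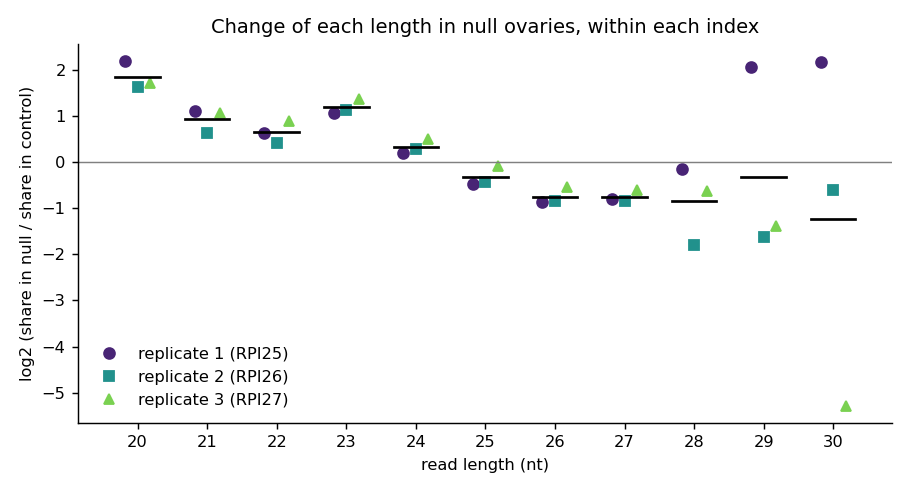
Change of the share of each read length, as log2 of the share in the null library over the share in the control library of the same index, by read length (nt). Each symbol is 1 of the 3 index pairs and the black bar their mean. All 3 pairs are above 0 from 20 to 24 nt and below 0 from 25 to 28 nt, and they scatter on both sides of 0 at 29 and 30 nt.

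Of the longest reads, those of 28 nt were lower in the null in each pair, and those of 29 and 30 nt had no common direction. Reads of 28 nt made up 3.58%, 2.58% and 8.03% in the controls and 3.25%, 0.747% and 5.22% in the null libraries, with overlap (adjusted p = 0.466, edgeR). The shares of 29 nt were 0.184%, 0.208% and 2.65% in the controls and 0.777%, 0.068% and 1.01% in the null libraries (adjusted p = 0.982, edgeR). Reads of 30 nt reached 4.62% in control replicate 3 but only 0.016% and 0.013% in control replicates 1 and 2, and 0.075%, 0.009% and 0.119% in the null libraries. Their fitted change of −3.26 (SE 2.65, adjusted p = 0.307, edgeR) rests on control replicate 3 and became 1.63 without it. Libraries of replicate 3 thus held the longest reads of their genotype, and control replicate 3 was also the shallowest of the 6.

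Distances between whole profiles varied within a genotype as well as between genotypes, and index and replicate number cannot be told apart. The absolute differences between 2 length profiles, summed over the 11 lengths, were 45.8, 43.6 and 45.3 points between null and control of the same index, and ran from 24.4 points (null replicate 3 against control replicate 2) to 76.3 points between null and control of different indices. Libraries of 1 genotype always carry different indices. Among the controls they were between 12.8 and 40.6 points, and among the null libraries between 15.2 and 31.0 points, so null and control of different indices overlapped with both. Ovaries in which a wt Piwi transgene was added to the null genotype (FLAG-HA-tagged, driven by the same Gal4) were within 9.81, 18.2 and 3.46 points of the control of the same index. The null libraries lay 43.3, 32.8 and 43.0 points from these transgene libraries. Length tables of the transgene libraries cover 92.3% to 93.5% of mapped reads, so the low coverage of the controls does not enter this second contrast. Against them 20 to 23 nt were higher and 25 to 28 nt lower in the null in each of the 3 pairs, while 24 nt was higher in 2 of 3. At the 4 called lengths the log2 changes were smaller in size than against the controls, with −0.30 at 25 nt and −0.62 at 26 nt, and with the index as a block 0.95 at 20 nt and 0.78 at 23 nt. With the index as a block, edgeR called 4 lengths higher (20 to 23 nt) and 5 lower (25 to 28 nt and 30 nt). Without the block it called 0, with 3 lengths at an unadjusted p under 0.05. This comparison was chosen after the data had been seen, and it uses the same null libraries as the main one.

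Reads of siRNA length give a reference within each library that does not depend on the total. The share of 21 nt reads was 3.92%, 4.83% and 2.46% in the controls and 8.47%, 7.49% and 5.16% in the null libraries. All null libraries were above all controls, and the mean was 1.88 times as high. The change was 0.85 on the log2 scale (SE 0.33, adjusted p = 0.0624, edgeR), and the two-sided exact permutation test of the shares gave p = 0.10, the smallest that 3 against 3 libraries allow. Adjusted over the 8 permutation tests this was 0.133, so none of the 8 can pass. For each read of 21 nt, the controls had 19.8, 15.003 and 32.9 reads of 24–29 nt, the range taken for piRNAs. The null libraries had 6.79, 7.21 and 13.1. The null value was 0.343, 0.481 and 0.398 of the control in the 3 index pairs, and the groups did not overlap (exact permutation p = 0.10, adjusted 0.133). Null replicate 3 came close to control replicate 2. Against the wt transgene libraries both measures overlapped. These had 4.16%, 5.98% and 2.503% of 21 nt reads and 18.95, 11.8 and 31.7 reads of 24–29 nt per 21 nt read (exact permutation p = 0.20 for each measure).

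The ratio to 21 nt reads also shows how much each length differed from the siRNA length. Reads of 26 nt numbered 5.82, 4.32 and 9.15 per read of 21 nt in the controls and 1.48, 1.56 and 2.99 in the null libraries. On average the null had 0.313 of the control value at 26 nt, 0.308 at 27 nt, 0.421 at 25 nt and 0.665 at 24 nt. At 22 nt it had 0.822, and at 23 nt 1.22. Of the lengths from 22 to 27 nt, 26 and 27 nt had the lowest mean values relative to the control, and longer reads, whose log2 ratios varied most between the pairs, were left out of this ratio. Whether the reads of 21 nt are siRNAs was not measured, and their own number per ovary is unknown. At 23 nt the null exceeded the control in 2 of 3 pairs by this ratio, with overlap between the groups.

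**Figure D3:**
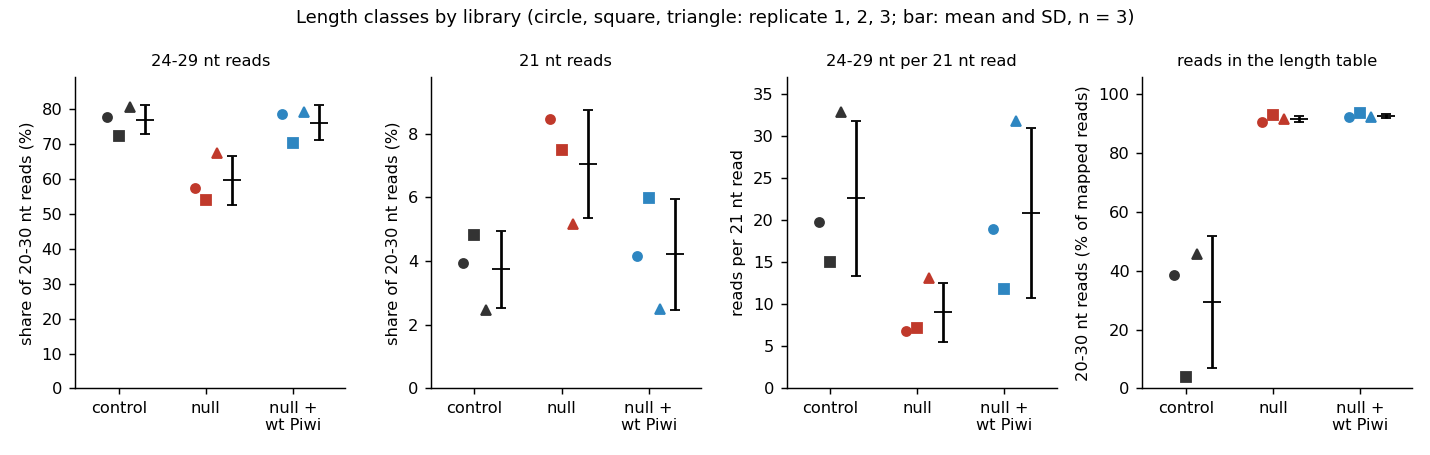
From left to right, the share of 24–29 nt reads and of 21 nt reads among 20–30 nt reads (%), the number of 24–29 nt reads per 21 nt read, and the 20–30 nt reads as a percentage of mapped reads, by genotype. Symbols are single libraries (circle, square and triangle for replicates 1, 2 and 3), and bars are the mean and SD of 3 libraries. Null libraries are below the controls for 24–29 nt reads and for the ratio, and above them for 21 nt reads and for the coverage of mapped reads, where the controls are at 3.72% to 45.8%.

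Reads of 24–29 nt made up 77.7%, 72.5% and 80.8% of the 20–30 nt reads in the controls and 57.5%, 54.0% and 67.6% in the null libraries. The null was lower in the 3 pairs (null minus control −20.2, −18.5 and −13.2 points), and more than 1 in every 2 reads in the table was still of piRNA length without Piwi. Reads of 20–23 nt were the counterpart, at 22.3%, 27.5% and 14.6% in the controls and 42.4%, 46.0% and 32.3% in the null libraries. When 24–29 nt reads were instead expressed per mapped read, the sign turned. They were 29.9%, 2.69% and 37.0% of mapped reads in the controls and 52.1%, 50.1% and 61.9% in the null libraries, which carries the low coverage of the control tables. Against the wt transgene libraries, where coverage was like that of the null, the null was lower on this scale too (72.8%, 65.9% and 73.2% with the transgene, exact permutation p = 0.10). Other transgenes express Piwi with an altered specificity loop, from Ago3 or synthetic (GSS). Of the 20–30 nt reads, 24–29 nt made up 78.7%, 70.4% and 79.3% with the wt transgene and 75.8%, 71.3% and 73.0% with the Ago3 loop. With the GSS loop the values, 64.6%, 67.9% and 52.8%, overlapped with the null. Replicate 1 with this loop was shallow (110971 raw reads), and replicate 3 had a 30 nt share of 32.3%. The 20–23 nt share did not overlap, at 32.10%, 32.08% and 14.9% with the GSS loop. Replicates 1 and 2 with this loop were only just below null replicate 3 (32.33%).

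The reads of piRNA length that remained were also composed otherwise. Reads of 26 nt made up 29.4%, 28.8% and 27.9% of the 24–29 nt reads in the controls, a mean of 28.7% ± 0.778 (SD, n = 3), and 21.8%, 21.7% and 22.8% in the null libraries (22.1% ± 0.635). This share varied little within the control and null groups, which were far apart (exact permutation p = 0.10). With the wt transgene it was 27.6%, 25.6% and 27.2%, lower than the control mean but above every null library (exact permutation p = 0.10). With the Ago3 loop transgene it was 26.5%, 27.7% and 23.8%. With the GSS loop transgene it was 20.6%, 27.6% and 23.97%. Replicate 1 there was below every null library, but it had only 110971 raw reads. Reads of 24 nt took 17.7%, 20.5% and 14.2% of the 24–29 nt reads in the controls and 27.5%, 33.7% and 24.2% in the null libraries. The 25 nt share was close in both, at 24.8% to 33.1% in the controls and 27.99% to 32.9% in the null libraries (exact permutation p = 0.90). Reads of 26 nt per read of 24 nt numbered 1.66, 1.40 and 1.96 in the controls and 0.794, 0.642 and 0.942 in the null libraries. Thus 26 nt outnumbered 24 nt in every control and in no null library. With the wt transgene the ratio was 1.40, 0.964 and 1.85. It was below 1 in replicate 2 there too, though just above the null range. The 24 nt share of 24–29 nt reads was 19.7%, 26.5% and 14.7% with the wt transgene and overlapped with the null (exact permutation p = 0.20). The mean length within 24–29 nt was 25.6, 25.5 and 25.96 nt in the controls and 25.4, 25.1 and 25.6 nt in the null libraries. It was shorter in the null in each pair (null minus control −0.176, −0.345 and −0.373 nt), but the groups overlapped (exact permutation p = 0.20).

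Reads bound to FLAG-HA-tagged wt Piwi in null ovaries with the transgene, sequenced in 1 immunoprecipitation library, show which lengths Piwi held. Its length table held 78.9% of its mapped reads, less than that of any total RNA library with a transgene. Of its 20–30 nt reads 92.4% were of 24–29 nt and 4.03% of 20–23 nt, and the most frequent length was 27 nt (23.3%), followed by 26 nt (21.7%). The difference between null and control over the 11 lengths had Pearson coefficients of −0.875, −0.828 and −0.744 with this profile in the 3 pairs. These describe 11 shares that sum to a fixed total within each library, and they carry no test.

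**Figure D4:**
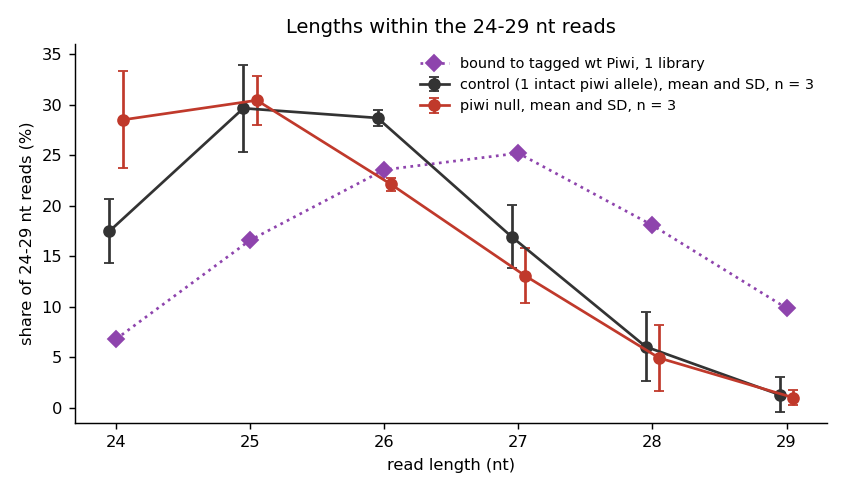
Share of each length (nt) within the reads of 24–29 nt (%). Black and red points are the means of 3 control and 3 null libraries with their SD, and purple points are the single library of RNA bound to wt Piwi. The null has more 24 nt and less 26 nt than the control, the 25 nt points nearly coincide, and the Piwi-bound reads peak at 27 nt.

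Mapping classes use all raw reads listed for a library and so do not depend on the length table. The authors describe taking out reads of structural RNAs before this mapping. The 4 classes add up to the raw reads listed, so reads taken out do not appear as a class of their own. Whether they were left out of the raw reads listed was not stated. Unmapped reads were 9.78%, 9.47% and 10.9% of raw reads in the controls and 16.8%, 14.7% and 17.2% in the null libraries. The means were 10.04% ± 0.736 and 16.2% ± 1.35 (SD, n = 3). Every null library was above every control, and mapped reads were lower in each of the 3 pairs (null minus control −6.998, −5.19 and −6.32 points, exact permutation p = 0.10, adjusted 0.133). Libraries with the wt transgene had 9.55%, 8.72% and 9.64% unmapped reads, like the controls. With the Ago3 and GSS loop transgenes the value was at most 10.5%, except for 19.3% in replicate 1 with the GSS loop (110971 raw reads). What the unmapped reads are was not tested.

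Reads with 1 position in the genome were 26.7%, 28.2% and 22.1% of raw reads in the controls and 21.9%, 20.8% and 18.2% in the null libraries. The null range lay just below the control range. With the Ago3 loop transgene these reads were 25.5%, 26.3% and 21.88%, and with the GSS loop transgene 26.5%, 30.7% and 18.0%. Replicate 3 with the GSS loop was thus below every null library. As a share of mapped reads, unique reads were 29.6%, 31.1% and 24.8% in the controls and 26.3%, 24.4% and 22.03% in the null libraries, which overlap (exact permutation p = 0.20). Each pair was lower in the null (null minus control −3.33, −6.78 and −2.75 points). Against the wt transgene (31.7%, 33.1% and 30.0%) the null libraries did not overlap (exact permutation p = 0.10). Reads with more than 1 and up to 100 positions were 63.4%, 62.3% and 67.0% of raw reads in the controls and 61.3%, 64.5% and 64.5% in the null libraries. They went down in 2 pairs and up in 1 (exact permutation p = 0.80), and the mean difference was −0.808 points, against −5.36 points for unique reads.

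Reads with more than 100 positions, from the most repeated sequence, were rare in both genotypes. They made up 0.0867%, 0.0857% and 0.0646% of raw reads in the controls and 0.0418%, 0.0484% and 0.0516% in the null libraries. The null mean was 0.598 of the control mean and the groups did not overlap (exact permutation p = 0.10, adjusted 0.133). The wt transgene libraries, at 0.0660%, 0.0647% and 0.0613%, lay between the null libraries and control replicates 1 and 2. They too did not overlap with the null (exact permutation p = 0.10). With the Ago3 loop transgene the values were 0.0663%, 0.0539% and 0.0477%, and with the GSS loop transgene 0.0631%, 0.0565% and 0.0422%. Replicate 3 of each lay within the null range.

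**Figure D5:**
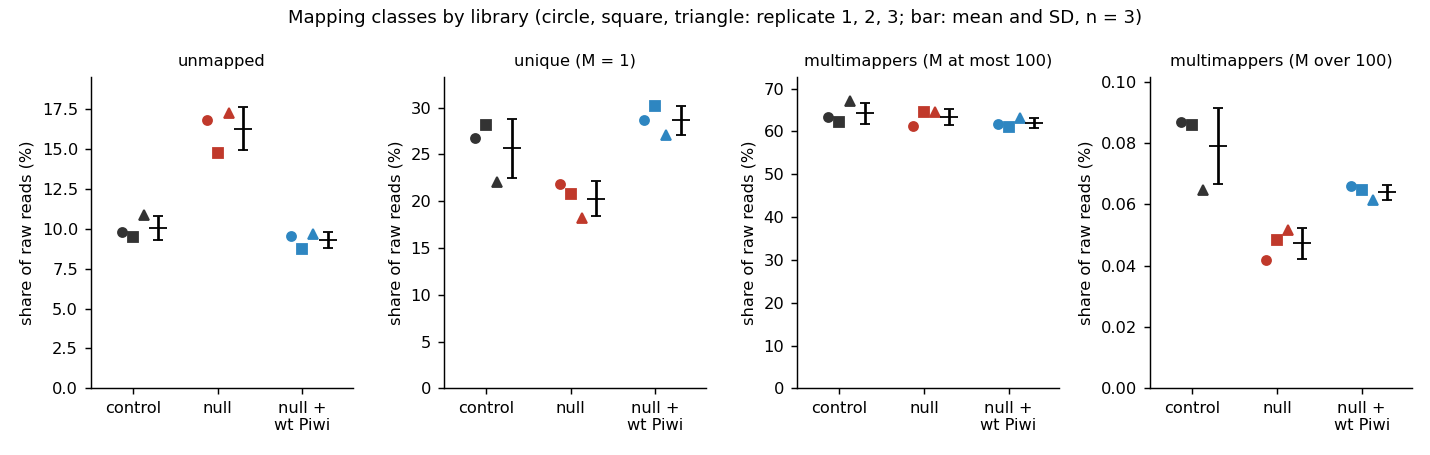
Share of raw reads (%) that were unmapped, unique, or mapped to up to 100 or to more than 100 positions (M, the number of positions), by genotype. Symbols are single libraries and bars the mean and SD of 3 libraries. Null libraries are above the controls and the wt transgene libraries for unmapped reads, at 14.7% to 17.2%. They are below both for unique reads and for reads with more than 100 positions, while the class with up to 100 positions overlaps.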

How the data were processed

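Small RNAs of total ovary RNA were size selected, ligated, sequenced and mapped by the authors. They removed adapters and barcodes with cutadapt and structural RNAs (miRNA, rRNA, snRNA, snoRNA and tRNA) with STAR, then mapped the remaining reads to dm6. The deposited values used are counts of reads per length (20 to 30 nt) and, under a unit recorded as other, whole-number read counts of raw reads and mapping classes. Mapped reads are unique reads plus multimappers with up to 100 positions. No column was left without a sample.

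Shares were computed per library and compared over 3 null and 3 control libraries by two-sided exact permutation of the 20 assignments (smallest p 0.10; 0.25 if swapped only within an index), adjusted by Benjamini-Hochberg over 8 tests. Counts of the 11 lengths were tested with edgeR 4.0.16 in R 4.3.3 (quasi-likelihood, library size set to the sum of the 11 lengths, threshold 0.05) and, as an alternative, DESeq2 1.42.0. Since lengths share 1 total, a change in share is relative. Full statistics are given for 21 nt and for the lengths with the 3 largest rises and 3 largest falls. The labels give same-numbered libraries a shared index. Their deviations from the genotype means correlated at −0.0166, 0.877 and 0.722 over the 11 lengths. Nothing states that replicates were separate groups of flies, so p-values measure the spread between libraries, which may be technical. Lists, ranges and tests were chosen with earlier results of these data known. Shares were computed in Python 3.11.15 with scipy 1.17.1 and drawn with matplotlib 3.10.9.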

Additional observations from a re-analysis of the deposited data

How the results depend on the processing

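The direction of the 8 tested shares and ratios held under every alternative except 3. The 24–29 nt share was lower in the null within 20–30 nt reads. It was higher by 31.5 points over mapped reads and by 24.97 points over raw reads. Both of these scales carry the low coverage of the control length tables, the source of which was not tested. With wt transgene libraries in place of controls (chosen after seeing the data), 20–30 nt reads over mapped reads differed by −1.06 points. Counts of lengths called higher and lower were 2 and 2, also with 30 nt left out and with a filter on low counts. They were 0 and 3 with TMM, 1 and 2 with DESeq2 size factors, 4 and 3 with the DESeq2 test, 0 and 1 with all 15 total RNA libraries in the fit, and 0 and 0 against the wt transgene libraries. Beside the counts of 0, unadjusted p under 0.05 were reached by 4 lengths with TMM, 4 with all 15 libraries and 3 against the wt transgene. With the replicate block the counts were 5 and 4, and 4 and 5 against the wt transgene libraries. With the block and 30 nt left out they were again 5 and 4, but 28 nt was then called lower in place of 30 nt. Leaving out libraries gave 0 to 5 higher and 0 to 3 lower. The cause of these moves was not tested.

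Among lengths that were not called, signs turned at 24 nt with TMM (log2 change −0.056), at 28 nt without null replicate 2 (0.19) or without replicate 2 (0.11), and at 30 nt without control replicate 3 (1.63) or without replicate 3 (0.62). At 29 nt they turned with TMM (−0.36), DESeq2 size factors (−0.062), the DESeq2 test (−0.71), the wt transgene libraries (−0.91, and −1.01 with the replicate block), and without control replicate 1 (−1.48) or 2 (−0.08), null replicate 1 (−0.22) or 3 (−0.86), or replicate 1 of both (−1.73). Over all left-out libraries, the log2 change ran from 0.36 to 0.70 at 22 nt, −1.12 to −0.48 at 27 nt, −1.53 to 0.19 at 28 nt, −1.73 to 1.24 at 29 nt and −5.47 to 1.63 at 30 nt. Permuting only within an index gave p = 0.25 in the exact test for each of the 8 measures, the smallest it allows. Counting error was at most 0.0869 points to either side of a share, and other effects of depth were not tested. The 3.72% coverage of control replicate 2 leaves most of that library out of the length comparison.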

Other observations

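Among the 15 libraries of total ovary RNA, reads of 30 nt were most frequent in those with index RPI27, with the exception of the null. Their share of the 20–30 nt reads was 4.62% in the control, 5.09% with the wt Piwi transgene, 9.26% with the Ago3 loop transgene, 32.3% with the GSS loop transgene and 0.119% in the null. Of the libraries with the other two indices, replicate 1 with the GSS loop transgene had 3.29% and the rest at most 0.0747%. Each value is 1 library.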
